A study of Mus musculus with 6 samples.

Results

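The CXC chemokines Cxcl2, Cxcl3, Cxcl9, Cxcl10, Cxcl12 and Cxcl16 and the CXC receptors Cxcr2, Cxcr3, Cxcr4 and Cxcr6 were examined in CX3CR1-EGFP+ osteoclast precursors. These 10 genes were matched by symbol among the 24346 gene symbols of the deposited tables, and each ligand was placed beside the receptor that it binds. In all, 8 of the 10 were above 0 in at least 1 mouse, and 7 reached 1 FPKM (fragments per kilobase of transcript, scaled to the mapped reads of the library) in at least 1 mouse and could be tested.

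RNA-Seq was carried out on EGFP+ cells sorted from the calvaria of 6 CX3CR1-EGFP reporter mice, in which the fluorescent protein is made from the Cx3cr1 locus, so that the sort takes monocyte-lineage cells by reporter activity and not by osteoclast potential. Every mouse received lipopolysaccharide (LPS), a bacterial cell wall product that causes inflammatory bone destruction, at 20 mg/kg into the calvarial periosteum. From that day, 3 mice were given ABT-317, a selective inhibitor of the kinase JAK1, by mouth at 60 mg/kg in 2 doses a day for 5 days, and the other 3 mice were given vehicle on the same schedule. There was no LPS-free group among the libraries, and the age and sex of the mice used for RNA-Seq are not given in the sources used here, since the methods state an age for the imaged mice only.

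Chemokines are small secreted proteins that direct cell migration through G protein-coupled receptors, and the CXC family is named for a pair of conserved cysteines separated by a single residue. Cxcl2 and Cxcl3 act on Cxcr2, the main neutrophil chemoattractant receptor, and both are induced by LPS through NF-kappaB. Cxcl9 and Cxcl10 are induced by interferons through JAK-STAT signalling and attract activated T cells, NK cells and plasmacytoid dendritic cells through Cxcr3. Cxcl12 is made by stromal cells of the marrow and retains hematopoietic cells through Cxcr4, and Cxcl16 is made as a membrane-bound protein by macrophages and dendritic cells, is released by ADAM10 and ADAM17, and binds Cxcr6 on T and NK cells.

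The promoter windows of these genes, from 250 bases before to 50 bases after the RefSeq transcription start (build GRCm38.p6), were searched on both strands for 3 motifs, namely GAS (TTCNNNGAA, bound by STAT dimers), the ISRE core (GAAANNGAA, bound by interferon-activated factors) and the kappaB core (GGNNTTTCC, bound by NF-kappaB). An entry was found for 9 of the 10 genes, Cxcl16 being the exception. GAS was found in 0 of the 9 windows, the ISRE core in 2 and the kappaB core in 4, whereas 8.3%, 8.6% and 5.8% of all 32851 windows of the same length held the respective motif. The stretches that hold the matches are given here 5′ to 3′ on the strand of the gene, with the matches in capitals. Cxcl2 and Cxcl3 lie 114.3 kb apart on chromosome 5, and Cxcl9 and Cxcl10 lie 18.6 kb apart on it. Each of these 4 genes holds a kappaB core, while only Cxcl2 and Cxcl10 were detected in these libraries.
Cxcl2, chr5:90903789-90903858, plus strand: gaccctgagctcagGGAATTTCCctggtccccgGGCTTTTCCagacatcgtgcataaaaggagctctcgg
Cxcl3, chr5:90786015-90786084, plus strand: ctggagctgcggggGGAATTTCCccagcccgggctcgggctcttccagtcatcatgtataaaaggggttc
Cxcl9, chr5:92328110-92328259, minus strand: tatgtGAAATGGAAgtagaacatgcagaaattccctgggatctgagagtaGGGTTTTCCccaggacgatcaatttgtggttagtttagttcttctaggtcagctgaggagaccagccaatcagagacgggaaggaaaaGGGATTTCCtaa
Cxcl10, chr5:92349034-92349107, minus strand: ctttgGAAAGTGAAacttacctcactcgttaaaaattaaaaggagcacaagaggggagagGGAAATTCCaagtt

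The Cxcl2 stretch holds 2 kappaB cores and the Cxcl3 stretch 1, the Cxcl9 stretch holds 1 ISRE core followed by 2 kappaB cores, and the Cxcl10 stretch holds 1 ISRE core followed by 1 kappaB core read from the opposite strand. These matches describe the letters only. No match in the other windows says only that these letters are not in them.

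The 6 libraries had between 10361 and 10439 symbols at 1 FPKM or more. Vehicle mouse 3 stood apart, with a mean Pearson correlation of 0.974 with the other vehicle libraries across genes, against 0.979 to 0.982 for the other libraries within their groups. It had 15.5 FPKM of Cx3cr1 and the lowest summed level of neutrophil progenitor genes and the lowest level of the plasmacytoid dendritic cell gene Siglech, so the difference of each CXC gene tested is given with and without it. The 6 monocyte markers, among them the cytokine receptor gene Csf1r, summed to 4818 to 5232 FPKM in the treated mice and 3632 to 5356 FPKM in the vehicle mice. Most of this sum was Ly6c2, at 4076 to 4494 FPKM and 2751 to 4617 FPKM. Of the 6, 3 were lower and 3 higher in the treated mice. Of the lower ones, 2 had an unadjusted p under 0.05 in limma, beside 9.4% of all genes tested. Cd14 was 1 of these, with a log2 difference of −0.83, and −0.62 without vehicle mouse 3. Genes of neutrophils and their progenitors were also abundant. Across all genes tested, 15 of 11301 (0.133%) passed an adjusted p of 0.05 in limma, and the median difference was 0.00 on the log2(FPKM + 1) scale. In sorted bulk RNA, fewer cells of a type and less RNA per cell cannot be told apart.

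None of the 7 CXC genes tested passed the adjusted threshold. In limma, 3 had an unadjusted p under 0.05, all lower in JAK inhibitor-treated mice (Cxcl2, Cxcl16 and Cxcr2), beside 9.4% of all genes tested in that direction, and 0 were higher, beside 6.57%. The same 3 genes did not overlap between the groups, with every treated mouse below every vehicle mouse, beside 12.1% of all genes tested. No member was higher without overlap, beside 9.92%. Without vehicle mouse 3, the count of members lower without overlap was again 3, beside 16.8% of all genes tested. Cxcl2 and Cxcr6 reached 1 FPKM in vehicle mice only, so the counts over the genes that passed this minimum are not evidence of a direction.

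**Figure D1:**
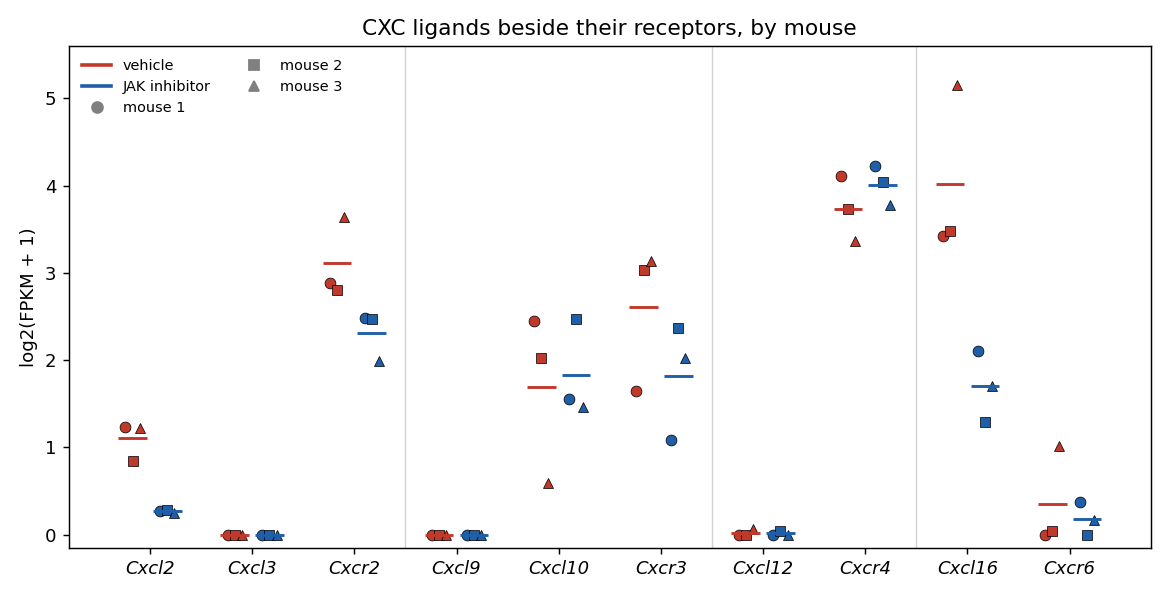
Level of each CXC ligand and receptor on the log2(FPKM + 1) scale in each of 3 vehicle (red) and 3 JAK inhibitor-treated (blue) mice, with the symbol giving the mouse number, the bar the group mean and vertical lines separating the ligand-receptor systems. Cxcl16, Cxcl2 and Cxcr2 lie lower in every treated mouse, Cxcr4 overlaps near 4, and Cxcl3, Cxcl9 and Cxcl12 lie at or near 0.

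Receptor RNA differed less between the groups than ligand RNA when summed. The 6 ligands together came to 5.44, 6.22 and 4.18 FPKM in the treated mice and to 15.5, 14.0 and 36.3 FPKM in the vehicle mice, where most of the sum was Cxcl16. The 4 receptors together came to 23.7, 24.1 and 18.8 FPKM and to 24.8, 25.5 and 29.6 FPKM, and Cxcr4 was the largest of them in every mouse but vehicle mouse 3, where Cxcr2 was. The summed ligands did not overlap between the groups, and neither did the summed receptors, whose closest mice were 24.1 and 24.8 FPKM. Among the receptors only Cxcr2 did not overlap by itself, while Cxcr4 had the higher mean in the treated mice (15.3 against 12.6 FPKM). The sums are therefore not results separate from those of Cxcl16 and Cxcr2.

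In the vehicle mice the order of mean level, which is per transcript length, was Cxcl16, Cxcr4, Cxcr2, Cxcr3, Cxcl10, Cxcl2 and Cxcr6. The ranges of each neighbouring pair in this order overlapped. Without vehicle mouse 3 the first 2 changed places, with a mean of 14.3 FPKM for Cxcr4 and 9.90 FPKM for Cxcl16. In the treated mice the order was Cxcr4, Cxcr2, Cxcr3, Cxcl10, Cxcl16, Cxcl2 and Cxcr6. There Cxcr4 lay apart from Cxcr2 with no overlap, Cxcr2, Cxcr3, Cxcl10 and Cxcl16 overlapped as neighbours, Cxcl16 lay above Cxcl2, and Cxcl2 overlapped with Cxcr6. Cxcl16 was the fifth by mean level in the treated mice, and its first place in the vehicle mice rested on vehicle mouse 3.

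In the Cxcr2 system, both the measurable ligand and the receptor were lower in treated mice, and the other ligand was not detected. Cxcl2 (ENSMUSG00000058427.10, chr5:90903871-90905938 in GRCm38, plus strand) is a neutrophil attractant made by activated myeloid cells. Its longest coding transcript has 3 exons, and the exon numbers of the other genes are likewise those of the longest coding transcript. Cxcl2 was at 0.202, 0.218 and 0.186 FPKM in the treated mice and at 1.36, 0.8 and 1.33 FPKM in the vehicle mice. Every treated mouse lay below every vehicle mouse, and all levels were low, with a mean level above that of only 3.2% of the genes tested. The difference was −0.84 on the log2(FPKM + 1) scale (SE 0.23, 95% interval −1.35 to −0.32, unadjusted p = 0.00517, adjusted p = 0.147 in limma). The pseudocount of 1 exceeds most of these levels, and the vehicle mean in FPKM was 5.76 times the treated mean. Leaving out vehicle mouse 3 gave −0.78 on the same scale. As Cxcl2 reached 1 FPKM in vehicle mice only, it entered the test through the group where it was higher. Its p-values are therefore not evidence of a direction.

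Cxcl3, which also binds Cxcr2 (chr5:90786103-90789600, plus strand, 4 exons), was listed at 0 in all 6 mice. It lies 114.3 kb from Cxcl2 on the same strand. Of the 942 possible 75-base reads of its coding transcript, 36 (3.82%) also fit Cxcl2, as did 36 of 1859 (1.94%) of Cxcl2 with Cxcl3, so few reads could have been assigned to the wrong member of the pair. Of all 24346 symbols, 8100 were listed at 0 in every mouse, and of 72 ribosomal protein symbols, 0 were. Ribosomal protein genes are highly expressed, so this does not show whether the zeros of a low gene such as Cxcl3 are true.

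Cxcr2 (ENSMUSG00000026180.8, chr1:74153989-74161246, plus strand, 2 exons) was at 4.58, 4.55 and 2.96 FPKM in the treated mice and at 6.38, 5.98 and 11.5 FPKM in the vehicle mice. The groups did not overlap, and vehicle mouse 3 was the highest. The difference was −0.80 on the log2(FPKM + 1) scale (SE 0.25, 95% interval −1.36 to −0.23, unadjusted p = 0.0112, adjusted p = 0.184 in limma). It was −0.53 without vehicle mouse 3, and −0.63 with an unadjusted p of 0.0573 in limma without treated mouse 3.

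Genes of neutrophils moved in both directions beside Cxcr2. Of 8 mature neutrophil markers, 4 were lower and 4 higher in the treated mice. Their summed level was 7301 to 15241 FPKM in the treated mice and 10615 to 20620 FPKM in the vehicle mice. Most of each sum was S100a8, with a log2 difference of −0.56 (adjusted p = 0.376 in limma), and −0.32 without vehicle mouse 3. Mmp8, a collagenase of neutrophil granules, was lower in every treated mouse at 110, 94.9 and 139 FPKM, against 189 to 356 FPKM in the vehicle mice (log2 difference −1.06, adjusted p = 0.109 in limma, and −0.77 without vehicle mouse 3). Camp, an antimicrobial peptide of the specific granules, was higher in every treated mouse, with a log2 difference of 1.64 (adjusted p = 0.0781 in limma). The summed level of 5 neutrophil progenitor genes was 12305 to 13270 FPKM in the treated mice and 5394 to 9879 FPKM in the vehicle mice. Vehicle mouse 3 was the lowest, and Mpo and Elane made up most of the sum in the treated mice. Of the 5 genes, 3 were higher and 2 lower in the treated mice. Ms4a3 was lower in every treated mouse, with a log2 difference of −0.39 (adjusted p = 0.123 in limma), and Ctsg had one of −0.05. The part of these cells in the Cxcl2 and Cxcr2 values was not tested.

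In the Cxcr3 system the groups overlapped for both genes detected, and neither had an unadjusted p under 0.05 in limma with all 6 mice. Cxcl9 (chr5:92321347-92328079, minus strand, 4 exons), a ligand induced by interferon-gamma, was listed at 0 in all 6 mice. Cxcl10 (ENSMUSG00000034855.13, chr5:92346638-92348889, minus strand, 3 exons), which lies 18.6 kb from Cxcl9 and is induced by type I and type II interferons, was at 1.93, 4.52 and 1.75 FPKM in the treated mice and at 4.45, 3.08 and 0.508 FPKM in the vehicle mice. The groups overlapped, with the highest level in treated mouse 2 and the lowest in vehicle mouse 3. The difference was 0.13 on the log2(FPKM + 1) scale (SE 0.46, 95% interval −0.92 to 1.19, adjusted p = 0.918 in limma), and it turned to −0.41 without vehicle mouse 3. The interval thus held differences of nearly 1 log2 unit in either direction, and it does not show that the groups were alike. The gene lies within Art3, which is on the opposite strand and was under 1 FPKM in each mouse, and 59 of its 1516 possible 75-base reads (3.89%) also lie in Art3.

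Cxcr3 (ENSMUSG00000050232.6, chrX:101731535-101734269, minus strand, 2 exons) was at 1.11, 4.14 and 3.08 FPKM in the treated mice and at 2.14, 7.2 and 7.8 FPKM in the vehicle mice. The lowest mouse of each group was mouse 1, and the vehicle value of mouse 1 lay within the treated range. The difference was −0.78 on the log2(FPKM + 1) scale (SE 0.44, 95% interval −1.78 to 0.21, unadjusted p = 0.108, adjusted p = 0.425 in limma). It was −1.26 without vehicle mouse 1 (unadjusted p = 0.00937 in limma), −0.41 without treated mouse 1 and −0.52 without vehicle mouse 3.

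Markers of the cells known for Cxcr3 were low or mixed. Cd3e, a chain of the T cell receptor complex, was at 0.348, 0.348 and 0 FPKM in the treated mice and at 0.235, 0.202 and 0.385 FPKM in the vehicle mice. The summed level of 13 T and NK cell genes was 498 to 583 FPKM in the treated mice and 216 to 386 FPKM in the vehicle mice, and nearly all of it was Nkg7. Without Nkg7, which was left out after its values were seen, the sums were 8.91 to 26.1 FPKM and 23.2 to 49.1 FPKM, with 8 of 10 tested genes lower. Of these 8, Cd4, Cd247, Klrb1c and Il2rb reached 1 FPKM in vehicle mice only, so this count is no evidence of a direction. Vehicle mouse 3 had the highest of these sums, and those of vehicle mice 1 and 2, 24.6 and 23.2 FPKM, lay within the treated range. Plasmacytoid dendritic cell genes summed to 87.1 to 107 FPKM in the treated mice and to 13.2 to 142 FPKM in the vehicle mice. The lowest sum was in vehicle mouse 3, in which Cxcr3 was the highest, and most of each sum was Ly6d. Of the 4 genes tested, 2 were lower and 2 higher, and Klk1, a lower one, reached 1 FPKM in vehicle mice only. Siglech had a log2 difference of −0.09, and −0.86 without vehicle mouse 3. Cox6a2 had one of 1.08, and 0.36 without that mouse. The part of these cells in the Cxcr3 values was not tested.

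In the Cxcr4 system the receptor was the most abundant of the 4 receptors in every mouse except vehicle mouse 3, and its ligand was nearly absent. Cxcr4 (ENSMUSG00000045382.6, chr1:128588199-128592293, minus strand, 2 exons), which retains monocytes and progenitors in the marrow, was at 17.7, 15.4 and 12.7 FPKM in the treated mice and at 16.3, 12.3 and 9.28 FPKM in the vehicle mice. The groups overlapped. The difference was 0.28 on the log2(FPKM + 1) scale (SE 0.20, 95% interval −0.18 to 0.73, adjusted p = 0.542 in limma), and it was 0.47 without vehicle mouse 1 (unadjusted p = 0.042 in limma) and 0.09 without vehicle mouse 3. A fall of more than 0.18 log2 units lay outside the interval.

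Cxcl12 (chr6:117168535-117181367, plus strand, 4 exons) was at 0.03 FPKM in treated mouse 2, at 0.045 FPKM in vehicle mouse 3 and listed at 0 in the other 4 mice. The genes of the stromal cells that make it were also low, with a sum over 9 genes of 1.66 to 3.13 FPKM in the treated mice and 0.79 to 1.72 FPKM in the vehicle mice. Pdgfra and Adipoq were at 0 in every mouse. Pdgfrb was the only one of the 9 to reach 1 FPKM, at 0.475, 2.58 and 1.5 FPKM in the treated mice and at 0.408, 1.13 and 1.395 FPKM in the vehicle mice. Markers of endothelial cells, another source of Cxcl12, summed to at most 0.45 FPKM.

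In the Cxcr6 system, Cxcl16 had the largest difference of the 7 genes tested and its receptor was at the limit of detection. Cxcl16 (ENSMUSG00000018920.11, chr11:70453983-70459984, minus strand, 5 exons), a membrane-bound chemokine that also acts as a scavenger receptor, was at 3.31, 1.45 and 2.25 FPKM in the treated mice and at 9.68, 10.1 and 34.4 FPKM in the vehicle mice. The groups were far apart, since the highest treated mouse lay below the lowest vehicle mouse, and vehicle mouse 3 was well above the other vehicle mice. The mean was 2.34 ± 0.933 FPKM (SD, n = 3) in the treated mice and 18.1 ± 14.2 FPKM (SD, n = 3) in the vehicle mice, a ratio of 7.73, which was 4.24 without vehicle mouse 3. The difference was −2.31 on the log2(FPKM + 1) scale (SE 0.43, 95% interval −3.29 to −1.33, unadjusted p = 0.000478, adjusted p = 0.0886 in limma), and it was −1.75 without vehicle mouse 3 (adjusted p = 0.059 in limma). The exact permutation test over the 6 mice gave p = 0.1 for Cxcl16, as for Cxcl2 and Cxcr2, which is the smallest value that 3 against 3 mice allow (two-sided).

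Cxcl16 overlaps Zmynd15, a gene on the opposite strand, by 552 bases, and 478 of its 2567 possible 75-base reads (18.6%) also lie in Zmynd15. The methods name a stranded library kit and the labels a kit that does not mark strand, so reads from this overlap may not be told apart. Zmynd15, picked after its values were seen, was at 0.154, 0.054 and 0.115 FPKM in the treated mice and at 0.969, 0.977 and 2.75 FPKM in the vehicle mice. Its level was thus below that of Cxcl16 in each mouse and lay in the same order between the groups (log2 difference −1.14, and −0.83 without vehicle mouse 3). It reached 1 FPKM only in vehicle mouse 3, so no test of it is given.

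Cxcr6 (ENSMUSG00000048521.8, chr9:123806475-123811760, plus strand, 2 exons) was at 0.298, 0 and 0.123 FPKM in the treated mice and at 0, 0.029 and 1.02 FPKM in the vehicle mice. It reached 1 FPKM only in vehicle mouse 3. The difference was −0.17 on the log2(FPKM + 1) scale (SE 0.33, 95% interval −0.91 to 0.57, adjusted p = 0.841 in limma), and it turned to 0.16 without that mouse. The gene lies within Fyco1, which is on the opposite strand and was at 3.49 to 5.94 FPKM, though none of the possible 75-base reads of the Cxcr6 transcripts were shared with it.

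**Figure D2:**
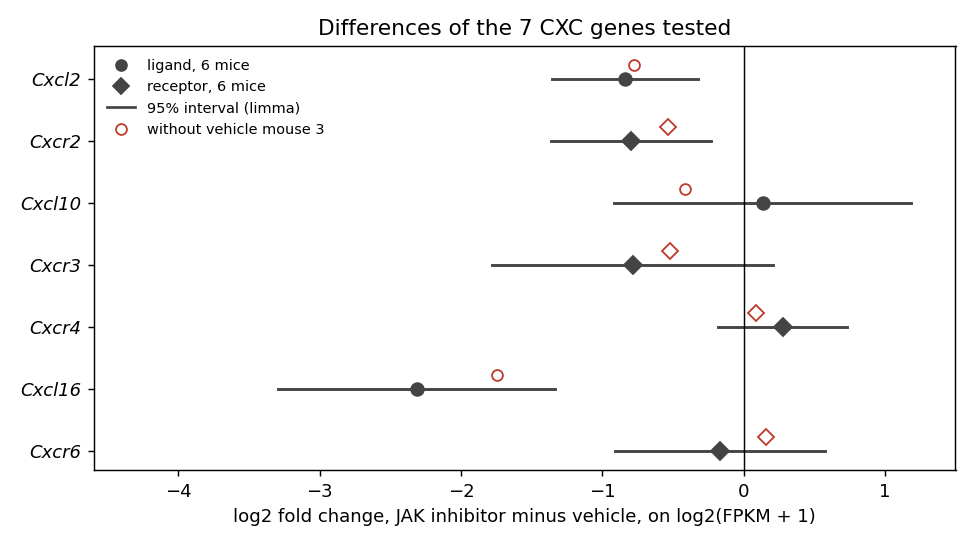
Difference of each of the 7 CXC genes tested, JAK inhibitor minus vehicle, on the log2(FPKM + 1) scale, with filled symbols for all 6 mice, lines for the 95% interval in limma and open red symbols for the value without vehicle mouse 3. The intervals of Cxcl2, Cxcr2 and Cxcl16 lie below 0, those of the other 4 genes include 0, and Cxcl10 and Cxcr6 change sign without that mouse. Cxcl2 and Cxcr6 reached 1 FPKM in vehicle mice only.

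Ligands that bring cells in by way of a receptor can be measured beside that receptor, so the ligand level minus the receptor level was computed in each mouse on the log2(FPKM + 1) scale for the 6 ligand-receptor pairs. Cxcl16 exceeded Cxcr6 by 1.73, 1.29 and 1.53 in the treated mice and by 3.42, 3.43 and 4.14 in the vehicle mice. The excess of ligand RNA was thus smaller in every treated mouse (difference −2.14, or −1.91 without vehicle mouse 3, exact permutation p = 0.1, adjusted p = 0.3 over the 6 pairs). Cxcr6 was near 0, with means of 0.18 in the treated and 0.35 in the vehicle mice on this scale. The pair difference is therefore nearly that of Cxcl16 alone (−2.31) and is not a separate result. Cxcl2 minus Cxcr2 was −2.05 on average in the treated mice and −2.01 in the vehicle mice, with ranges that overlapped (difference −0.04, exact permutation p = 0.9). With a pseudocount of 0.1 the difference was −1.11, so how far Cxcl2 moved beside Cxcr2 depends on this setting. Cxcl10 minus Cxcr3 was 0.47, 0.10 and −0.57 in the treated mice and 0.80, −1.01 and −2.55 in the vehicle mice, which overlapped (difference 0.92, exact permutation p = 0.5). This difference was 0.10 without vehicle mouse 3 and 1.78 without vehicle mouse 1. For the remaining 3 pairs the ligand was at or near 0, so the value is nearly the receptor's own level with its sign turned.

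The spread between mice was wide for most of these genes. The SD within groups on the log2(FPKM + 1) scale was 0.79 for Cxcl10, 0.75 for Cxcl16 and 0.75 for Cxcr3, each above that of at least 98.2% of the genes tested, whose median was 0.19. It was 0.38 for Cxcr2, 0.31 for Cxcr4 and 0.43 for Cxcr6. Cxcl2 had the smallest spread of the 7 genes at 0.16, above that of 37.9% of the genes tested.

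Other members of the CXC family were mostly absent. Of 13 further ligands and receptors, Cxcl11, Cxcl15, Cxcr1 and Ackr3 were listed at 0 in every mouse, and Cxcl1, Cxcl5, Cxcl14, Cxcl17, Ppbp, Cxcr5 and Ackr1 stayed under 1 FPKM, with a highest value of 0.819 FPKM for Cxcl14. The other 2 were ligands, and both had a lower mean in the treated mice. Pf4, a chemokine of platelets and some macrophages, was at 16.3, 4.26 and 3.79 FPKM in the treated mice and at 30.04, 41.4 and 13.6 FPKM in the vehicle mice, with treated mouse 1 above vehicle mouse 3 (log2 difference −1.82, SE 0.51, adjusted p = 0.156 in limma, and −2.26 without vehicle mouse 3). Cxcl13, the B cell attractant that binds Cxcr5, was at 2.54, 3.5 and 1.92 FPKM in the treated mice and at 13.8, 2.28 and 29.2 FPKM in the vehicle mice, with vehicle mouse 2 inside the treated range (log2 difference −1.66, SE 0.66, adjusted p = 0.267 in limma, and −0.95 without vehicle mouse 3).

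Most macrophage markers had a lower level in the treated mice, as Cxcl16 did, though none passed the adjusted threshold with all 6 mice. Of 10 macrophage markers, 9 were lower and 5 of these had an unadjusted p under 0.05 in limma, beside 9.4% of all genes tested. Their median log2 difference was −1.11, and their summed level was 532 to 673 FPKM in the treated mice and 756 to 907 FPKM in the vehicle mice. C1qb, a chain of the complement component C1q, was at 61.8, 31.1 and 32.4 FPKM in the treated mice and at 163, 176 and 93.3 FPKM in the vehicle mice (log2 difference −1.78, adjusted p = 0.0721 in limma), and it passed without vehicle mouse 3 (−2.07, adjusted p = 0.0477 in limma). Mertk, a receptor for the uptake of apoptotic cells, was at 1.34, 0.456 and 0.444 FPKM in the treated mice and at 2.74, 2.09 and 10.2 FPKM in the vehicle mice, and, as for Cxcl16, vehicle mouse 3 was the highest (log2 difference −1.57, adjusted p = 0.158 in limma, and −0.999 without that mouse). C1qb was in contrast the lowest in vehicle mouse 3 among the vehicle mice. Other markers, picked here after their values were seen, moved little or the other way, with log2 differences of −0.10 for Adgre1, −0.08 for Cd68 and 0.46 for Vcam1. The part of macrophages in the Cxcl16 values was not tested.

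**Figure D3:**
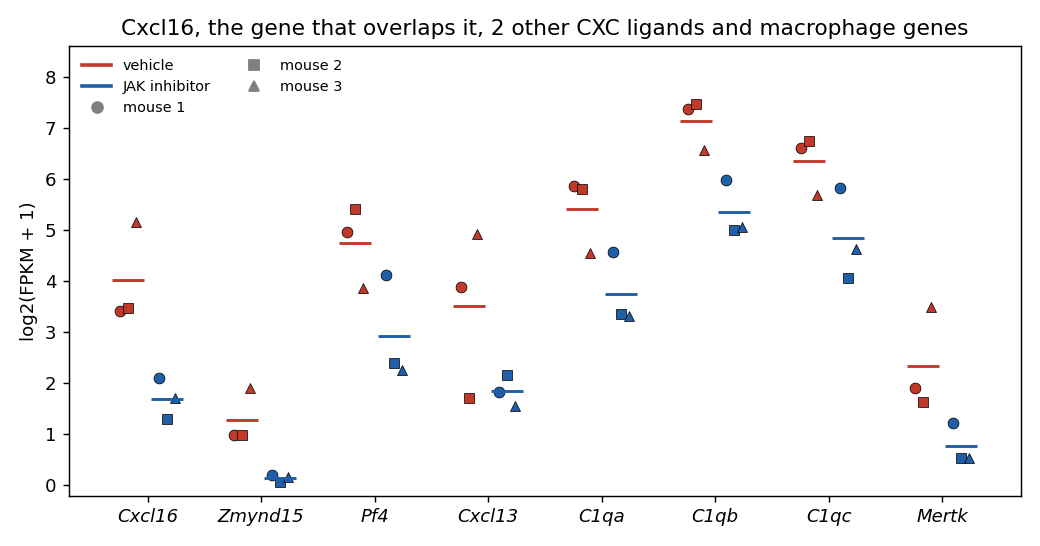
Levels on the log2(FPKM + 1) scale, by mouse, of Cxcl16, the opposite-strand gene Zmynd15, the CXC ligands Pf4 and Cxcl13 and 4 macrophage genes, in 3 vehicle (red) and 3 JAK inhibitor-treated (blue) mice, with bars for the group means. All 8 means are lower in the treated mice, and the 4 macrophage genes were picked from the 9 of 10 markers that were lower. Vehicle mouse 3 (red triangle) is the highest vehicle mouse for Cxcl16, Zmynd15, Cxcl13 and Mertk and the lowest for Pf4, C1qa, C1qb and C1qc.

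Enzymes that release or trim these ligands were abundant and did not move one way. Adam10, which sheds Cxcl16, was at 38.9 to 44.2 FPKM in the treated mice and at 33.6 to 38.0 FPKM in the vehicle mice (log2 difference 0.18, adjusted p = 0.423 in limma), and Adam17 had a log2 difference of −0.10. Dpp4, which clips the ends of Cxcl9, Cxcl10 and Cxcl12, had a log2 difference of −0.26. Of the 7 enzymes, 5 were lower and 2 higher, with a median of −0.10. An unadjusted p under 0.05 in limma was found for 2 lower enzymes, beside 9.4% of all genes tested, and 1 higher, beside 6.57%. The lower ones were Mmp8, given above, and Mmp9, and the higher one was Elane. Without vehicle mouse 3 these counts were 1 lower and 1 higher, beside 884 and 582 of all 11301 genes tested. Elane, the neutrophil elastase, had a log2 difference of 1.12 (adjusted p = 0.136 in limma), and without vehicle mouse 3 it passed at 0.70 (adjusted p = 0.0424 in limma). Mmp9, a gelatinase, had a log2 difference of −1.32 (adjusted p = 0.282 in limma), and −0.66 without vehicle mouse 3.

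The signalling genes shared by all CXC receptors were expressed in each mouse and differed in both directions. Of 25 genes tested, 9 were lower and 16 higher, with a median of 0.09 on the log2(FPKM + 1) scale, and an unadjusted p under 0.05 was found for 3 lower genes, beside 9.4% of all genes tested, and for 3 higher genes, beside 6.57%, which is near the background. Without vehicle mouse 3 these counts were 1 lower and 1 higher, beside 884 and 582 of all 11301 genes tested. None of the 25 genes passed the adjusted threshold. Rgs2, which speeds the shut-off of G proteins, was at 104, 102 and 114 FPKM in the treated mice and at 90.2, 83.3 and 72.9 FPKM in the vehicle mice (log2 difference 0.37, adjusted p = 0.154 in limma). Among the receptor kinases, Grk5 had a log2 difference of 0.61 and Adrbk1, also known as Grk2, one of −0.34. The regulatory subunits of phosphoinositide 3-kinase gamma, Pik3r5 and Pik3r6, had log2 differences of −0.50 and −0.32. Without vehicle mouse 3 the log2 differences were 0.29 for Rgs2, 0.45 for Grk5, −0.35 for Adrbk1, −0.35 for Pik3r5 and −0.22 for Pik3r6. Of these genes, only Rgs2 and Adrbk1 then had an unadjusted p under 0.05 in limma.

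The differences were recomputed with each mouse left out and with other filters, scalings, pseudocounts and models. Cxcl16 had a log2 difference between −2.71 and −1.75 and an unadjusted p under 0.05 in limma in each of 15 alternatives, with adjusted p-values from 0.0385 (library weights) to 0.344 (without treated mouse 2). Cxcr2 lay between −0.95 and −0.53 with such a p in 14 of 15. Cxcl2 lay between −2.03 and −0.77 in the 13 that kept it. Since Cxcl2 reached 1 FPKM in vehicle mice only, its p-values in these settings are not evidence of a direction. Cxcr3 stayed below 0, from −1.26 to −0.41, with such a p in 2 of 15, and Cxcr4 above 0, from 0.09 to 0.47, with such a p in 1 of 15.

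**Figure D4:**
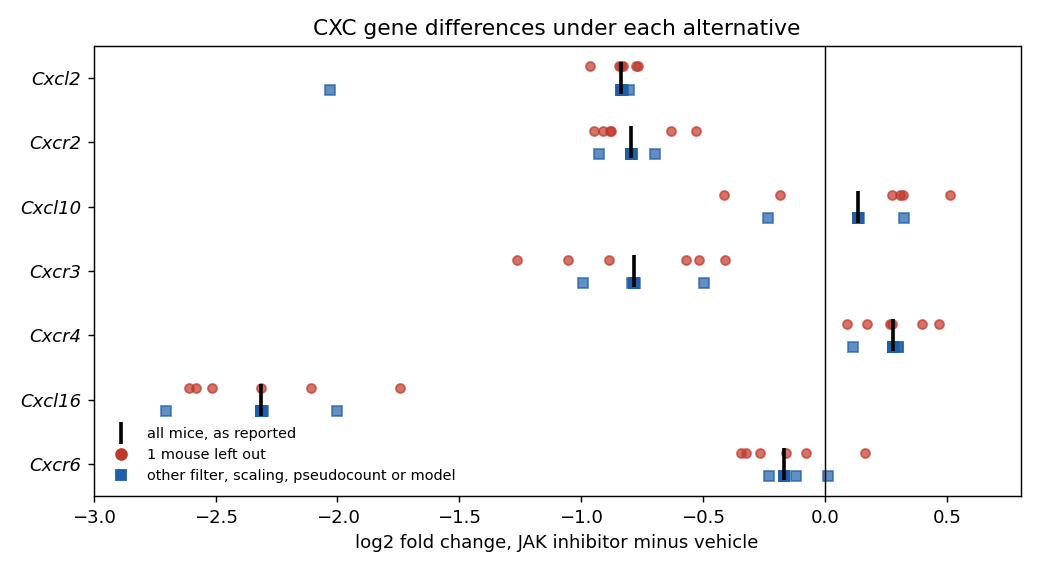
Log2 difference of the 7 CXC genes tested, JAK inhibitor minus vehicle, with all mice (black bar), with 1 mouse left out (red circles) and under another filter, scaling, pseudocount or model (blue squares). Cxcl2, Cxcr2, Cxcr3 and Cxcl16 stay below 0 and Cxcr4 above 0 in each setting shown, while Cxcl10 and Cxcr6 lie on both sides of 0.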

How the data were processed

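The RNA of sorted CX3CR1-EGFP+ cells was sequenced by the authors in 75-base single-end reads, and 1 table per mouse of FPKM values by gene symbol was deposited (3 JAK inhibitor-treated and 3 vehicle-treated mice). The submitters' processing notes name TopHat2 2.0.13, Bowtie2 2.2.3, SAMtools 0.1.19, Cufflinks 2.2.1 and the build mm10, with no settings. The annotation is not given in the sources used here. No counts were given, so the depth is unknown and no counting interval could be computed.

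Values were taken as log2(FPKM + 1), which understates the change of low genes. The 11301 symbols with at least 1 FPKM in at least 1 mouse were compared in limma 3.58.1 (R 4.3.3) with a trended variance and no block, and p-values were adjusted by Benjamini-Hochberg over all of them. The script was tested on simulated data. Single values and ligand-receptor differences were compared by exact two-sided permutation tests (SciPy 1.17.1). Replicate numbers name different mice, as the study describes them. All 10 CXC genes, the other CXC genes, and at most 5 signalling genes or proteases with an unadjusted p under 0.05 were named, with at most 4 markers per cell type. Members and lists were chosen with earlier results of these data known. Positions came from GENCODE M21 (GRCm38), and 95.7% of the symbols matched a reference name. The alternatives were other pseudocounts, filters, scalings, variance models, library weights, a replicate block and each mouse left out. The levels, ratios and list counts without vehicle mouse 3 were added after the data were seen.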

Additional observations from a re-analysis of the deposited data

How the results depend on the processing

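The count of 15 genes past the adjusted threshold changed to 2 with no filter on low values, 34 with at least 1 FPKM in at least 3 mice, 2 with no trended variance, 63 with library weights and 67 with the replicate number as a block, and ranged from 1 (without treated mouse 2) to 25 (without vehicle mouse 3) with 1 mouse left out. It was 4 without treated mouse 1, 3 without treated mouse 3 and 8 without vehicle mouse 1. The replicate block changed no adjusted call of a CXC gene; Cxcr3 had an unadjusted p of 0.00447 (adjusted p = 0.119) with it in limma. The deviations of same-numbered mice from their group means had r across genes of 0.02, 0.05 and 0.00, against −0.04 to 0.02 for unlike numbers. Values this low cannot exclude a batch shared by mice of the same number, so whether the numbers pair the mice is not known. Library weights gave −0.24 for Cxcl10 and 0.01 for Cxcr6, and moved Cxcl16 past the threshold (adjusted p = 0.0385). With 1 mouse left out, Cxcl10 ranged from −0.41 to 0.51, Cxcr6 from −0.34 to 0.16, Cxcl2 minus Cxcr2 from −0.25 to 0.14, and Cxcl10 minus Cxcr3 from 0.10 to 1.78. The cause of these changes was not tested. The minimum of 1 FPKM in 3 mice, and a mean of at least 1 FPKM, removed Cxcl2 and Cxcr6. Levels near or under 1 FPKM limit what can be said of Cxcl2, Cxcl12 and Cxcr6.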
